A study of Drosophila melanogaster with 17 samples.

Results

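The MNase titration of BG3-c2 chromatin comprised 3 of the 17 libraries of the series, 1 each from a low, a medium and a high amount of micrococcal nuclease (MNase), all read in full on nanopore devices. They were chosen by their library type, without regard to any measured value. BG3-c2 is a Drosophila melanogaster cell line from the larval central nervous system, and the cells of these libraries carried no knockdown, per the labels. The labels rank the digests as low, medium and high but do not say how much enzyme each received. As references, 2 nanopore libraries of total digests of untreated BG3-c2 chromatin (replicates 1 and 2) were measured in the same way. So was 1 nanopore library of histone-free BG3-c2 genomic DNA digested with MNase (naked DNA). Untreated thus does not mean undigested, and how strongly the 2 untreated libraries were digested is not known here. The cell type was not checked against markers, since the tables hold DNA fragments and no expression values.

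Nucleosomes wrap DNA around a histone octamer and are joined by short stretches of linker DNA. MNase cuts linker DNA first, so a partial digest leaves fragments that hold 1, 2, 3 or more nucleosomes and form a ladder. The same enzyme then trims the free ends of a fragment back towards the nucleosome. In flies most of the genome lies in the arms of chromosomes 2, 3 and X. The pericentric heterochromatin and the small chromosome 4 are known for the heterochromatin protein HP1 and histone H3 lysine 9 methylation, and repeats that could not be placed were collected in the unplaced contigs U and Uextra. The mitochondrial genome has no histones.

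The low digest held 355426 aligned fragments, the medium digest 437784 and the high digest 327053. The reference libraries held 630936 and 107571 fragments (untreated replicates 1 and 2) and 2992593 fragments (naked DNA). Each digest is a single library, so no difference between digests has a replicate check and none was tested. Counting error was given as 95% intervals, which cover counting error only, and the spread within a library as the range over the 5 large arms 2L, 2R, 3L, 3R and X. The difference between the 2 untreated libraries served as the only available scale for differences between libraries. Alignment was least certain where sequence repeats. Scores under 20 were given to 2.69% to 2.74% of fragments on the arms of the 3 digests, to 32.3% to 33.6% on the Het contigs, to 57.4% to 63.0% on Uextra and to 86.1% to 88.9% on the mitochondrial genome.

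Stronger digestion shortened the fragments of the arms by about the length of a nucleosome repeat in the median. The median length was 604 bp in the low, 463 bp in the medium and 405 bp in the high digest. The mean fell further, from 817 bp through 579 bp to 470 bp, as the long end of the distribution shrank. Fragments over 1000 bp held 51.3% of the sequenced bases of the arms in the low digest, 24.9% in the medium digest and 10.8% in the high digest. Among the 5 arms the median ranged only from 603 to 605 bp in the low, from 459 to 467 bp in the medium and from 402 to 407 bp in the high digest. The ranges of the 3 digests did not overlap.

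**Figure D1:**
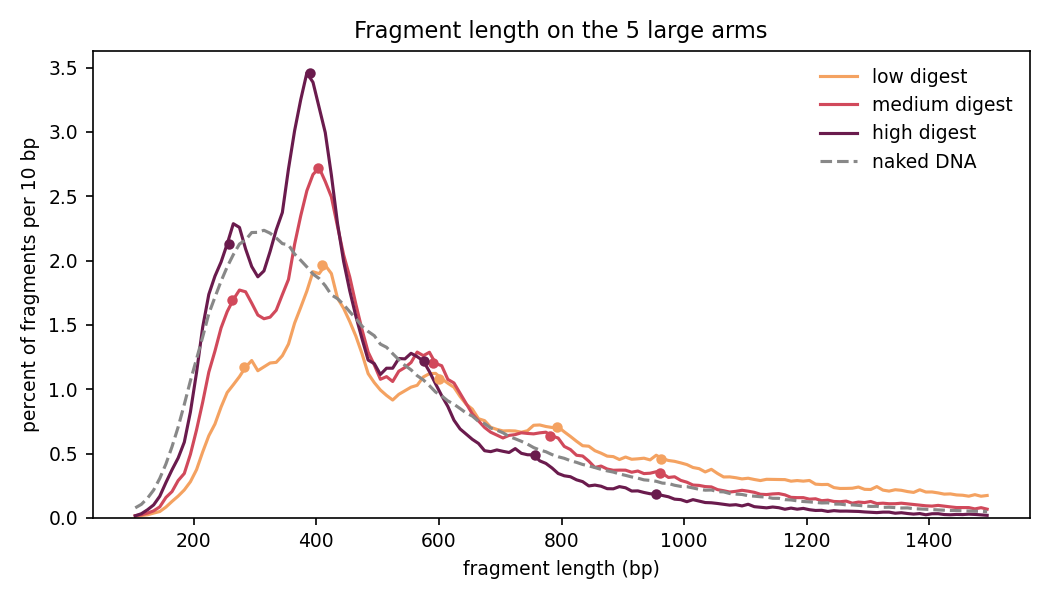
Percent of fragments per 10 bp of length (vertical axis) against fragment length in bp (horizontal axis) on the 5 large arms, for the 3 digests and for naked DNA; points mark the first 5 maxima found after division by the broad trend, so that they can lie beside the crest of the undivided curve. The second maximum lies at 410 bp in the low, 403 bp in the medium and 389 bp in the high digest, and naked DNA shows a single broad hump.

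Lengths were turned into nucleosome numbers with fixed boundaries, the minima of the histogram of the 3 digests together. Fragments from 120 bp counted as 1 nucleosome, from 318 bp as 2, from 507 bp as 3, from 683 bp as 4, from 874 bp as 5, and from 1072 bp as 6 or more in further steps of 187.6 bp. Over all fragments the mean was 4.10, 2.87 and 2.31 nucleosomes per fragment in the low, medium and high digest. The difference between high and low was -1.79 nucleosomes (95% interval -1.80 to -1.78). The untreated libraries had means of 3.80 and 3.65 and differed from each other by 0.152, far less than the digests did.

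On the arms, fragments moved out of the long classes and into the mono- and dinucleosomal ones. Mononucleosomal fragments made up 11.7% of the low, 18.5% of the medium and 25.2% of the high digest. The dinucleosomal class was the most frequent in all 3 digests and grew from 28.3% through 37.2% to 44.0%. The trinucleosomal class stood still by comparison, with 17.1%, 18.7% and 16.9%. Tetranucleosomal fragments fell from 12.3% to 7.60%, and pentanucleosomal ones from 8.43% to 3.32%. The class of 6 or more nucleosomes changed most, from 22.2% in the low through 8.54% in the medium to 3.00% in the high digest. Fragments of 11 or more nucleosomes made up 5.80%, 0.880% and 0.201%.

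From 2 nucleosomes upwards, each further rung held a smaller share of the rung below it as digestion increased. There were 0.603 trinucleosomal fragments per dinucleosomal fragment of the arms in the low digest, and this ratio dropped through 0.503 to 0.383. The ratio of 4 to 3 nucleosomes fell from 0.724 through 0.590 to 0.451, and that of 5 to 4 from 0.683 through 0.555 to 0.437. The ratio of 2 to 1 nucleosomes also fell, from 2.42 through 2.01 to 1.74, and so came closer to 1. In every digest dinucleosomal fragments thus outnumbered mononucleosomal ones. Untreated replicate 1 had 6.25 dinucleosomal fragments per mononucleosomal fragment and replicate 2 had 2.11, so this ratio varied strongly between libraries of the same kind. How much of the shortest class was lost during purification, library preparation or alignment was not tested.

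The nucleosome number is a class of length and not a count of histones. Naked DNA of the arms, which holds none, had a median of 433 bp and came out at 2.59 "nucleosomes" per fragment, between the medium and the high digest. What set chromatin apart from naked DNA was the periodic shape of the histogram. The number of fragments at the third maximum was divided by the geometric mean of the numbers at the minima on either side. In a chromatin library these positions came from its own arms, so a ratio above 1 there was partly set by that choice. For naked DNA they came from the arms of the 3 digests together. All regions of a library were measured at the same positions. This peak-to-trough ratio was 1.36 (1.33 to 1.40) on the arms in the low, 1.45 (1.42 to 1.49) in the medium and 1.50 (1.46 to 1.54) in the high digest, against 1.03 (1.02 to 1.04) in naked DNA. At the second maximum the ratio rose from 1.79 through 2.03 to 2.24 over the 3 digests, against 1.09 in naked DNA. The untreated libraries gave 2.10 and 1.54 at the third maximum, and the difference between them was larger than that among the digests.

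The move of the ladder maxima to shorter lengths with stronger digestion was taken as the measure of linker trimming. Whether trimming alone moved the maxima was not tested. The second (dinucleosomal) maximum of the arms lay at 410 bp in the low, 403 bp in the medium and 389 bp in the high digest. Among single arms it ranged from 397 to 413 bp in the low, from 400 to 405 bp in the medium and from 386 to 393 bp in the high digest. High-digest positions lay below those of the other digests on all 5 arms, whereas the ranges of low and medium overlapped. The shift from low to high was -21 bp on the arms together and between -24 and -9 bp on single arms, negative on 5 of 5. Over all fragments it was -19 bp, from 409 to 390 bp. On the arms the 2 untreated libraries, at 374 and 367 bp, differed by 7 bp from each other, as much as the 7 bp between low and medium and less than the 14 bp between medium and high.

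The trinucleosomal maximum of the arms lay at 600 bp in the low, 591 bp in the medium and 576 bp in the high digest, a shift of -24 bp from low to high (single arms -32 to -17 bp, negative on 5 of 5). For 4 nucleosomes it lay at 793, 781 and 757 bp in the same order, a shift of -36 bp (single arms -55 to -14 bp, negative on 5 of 5). The fifth maximum, at 963, 960 and 954 bp, moved by -9 bp, with single arms from -48 to 16 bp and 4 of 5 negative. At the fifth maximum the shift could not be told from the spread of 25.3 bp (SD) among arms. Local quadratic fits to the undivided histogram of the arms gave shifts from low to high of -20.6 bp at the second, -40.3 bp at the third and -45.1 bp at the fourth maximum. The direction was the same by both methods, but the size at the third maximum depended on how its position was found. By the divided histogram the low-to-medium step gave -7, -9, -12 and -3 bp at maxima 2 to 5, and the medium-to-high step -14, -15, -24 and -6 bp. On the arms together the medium-to-high step was thus the larger one at maxima 2 to 4. On single arms the ranges of the 2 steps overlapped at the third maximum (-18 to 5 and -34 to 0 bp). They also did so at the fourth (-45 to 10 and -44 to 0 bp). The local fits gave -17.5 and -22.8 bp for the 2 steps at the third maximum. At the fifth the 2 steps could not be compared, given the spread among arms.

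**Figure D2:**
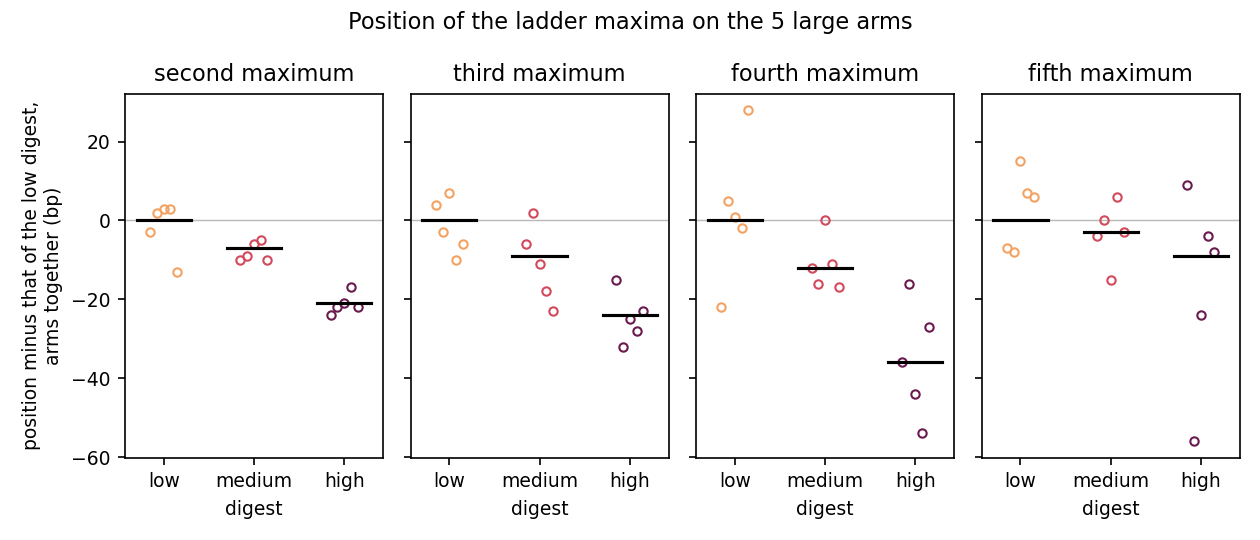
Position of ladder maxima 2 to 5 (vertical axis, bp, minus the position in the low digest on the arms together) in the low, medium and high digest (horizontal axis); open circles are the 5 large arms and bars the arms together. The bars fall to -21 bp at the second, -24 bp at the third, -36 bp at the fourth and -9 bp at the fifth maximum, and the circles spread most at the fifth.

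The first maximum stood closer to the second than the other maxima stood to each other. It lay at 282 bp in the low, 263 bp in the medium and 258 bp in the high digest on the arms, which is 128, 140 and 131 bp below the second. Steps between maxima 2, 3 and 4 were 181 to 193 bp in the 3 digests. In the untreated libraries the first maximum lay at 197 and 214 bp, 177 and 153 bp below the second. The first maximum of the titration thus lay at a greater length than that of the untreated libraries, and the reason was not tested.

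The repeat length, the slope through maxima 2 to 5, showed no stable difference between digests. On the arms it was 185.2 bp in the low, 186.1 bp in the medium and 187.6 bp in the high digest, with single arms from 181.4 to 194.3 bp, from 183.6 to 189.2 bp and from 176.6 to 193.0 bp. The difference between high and low was 2.40 bp for the arms together, but it was negative on 4 of 5 single arms, which averaged -1.32 bp with an SD of 7.57 bp. Over all fragments the slope was 185.5 bp in the low and 186.7 bp in the high digest, a difference of 1.20 bp, smaller than the 2.70 bp between the untreated libraries (184.4 and 187.1 bp). A decaying cosine fitted to the histogram of the arms from 330 to 1200 bp, an analysis chosen after the data had been seen, gave a different picture. Its period was 186.2 bp (184.5 to 187.9) in the low, 182.7 bp (181.4 to 184.1) in the medium and 175.2 bp (173.4 to 176.9) in the high digest. The period of the untreated libraries was 179.5 and 186.0 bp. The direction of a change in repeat length thus depended on how it was measured, whereas the cosine placed the dinucleosomal maximum at 421.5, 416.5 and 404.4 bp and so moved it in the same direction as the maxima did.

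By chromosome class, the Het contigs, which hold assembled pericentric heterochromatin, carried the longest ladder among the placed sequences in all 3 digests, and chromosome 4 the shortest. The Het contigs had 4.70, 3.12 and 2.40 nucleosomes per fragment in the low, medium and high digest. The arms had 4.16, 2.90 and 2.33, and chromosome 4 had 3.82, 2.72 and 2.17. Unplaced contig U lay near the Het contigs, with 4.57, 3.24 and 2.50. Uextra lay far below, with 2.60, 2.25 and 1.98, and the mitochondrial genome lowest, with 1.87, 1.58 and 1.46. From low to high the mean fell by 2.30 nucleosomes on the Het contigs (95% interval -2.36 to -2.24), by 1.83 on the arms (-1.85 to -1.82) and by 1.64 on chromosome 4 (-1.72 to -1.56). In naked DNA the mean was 2.59 on the arms, 2.55 on the Het contigs and 2.30 on chromosome 4. Among these, chromosome 4 was thus also shortest where histones were absent, and the Het contigs were not longest. Uextra had 1.91 and the mitochondrial genome 2.00 in naked DNA, so both lay below the arms without histones too. Whether the length of the sequences collected in Uextra limited the aligned span of its fragments was not tested.

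**Figure D3:**
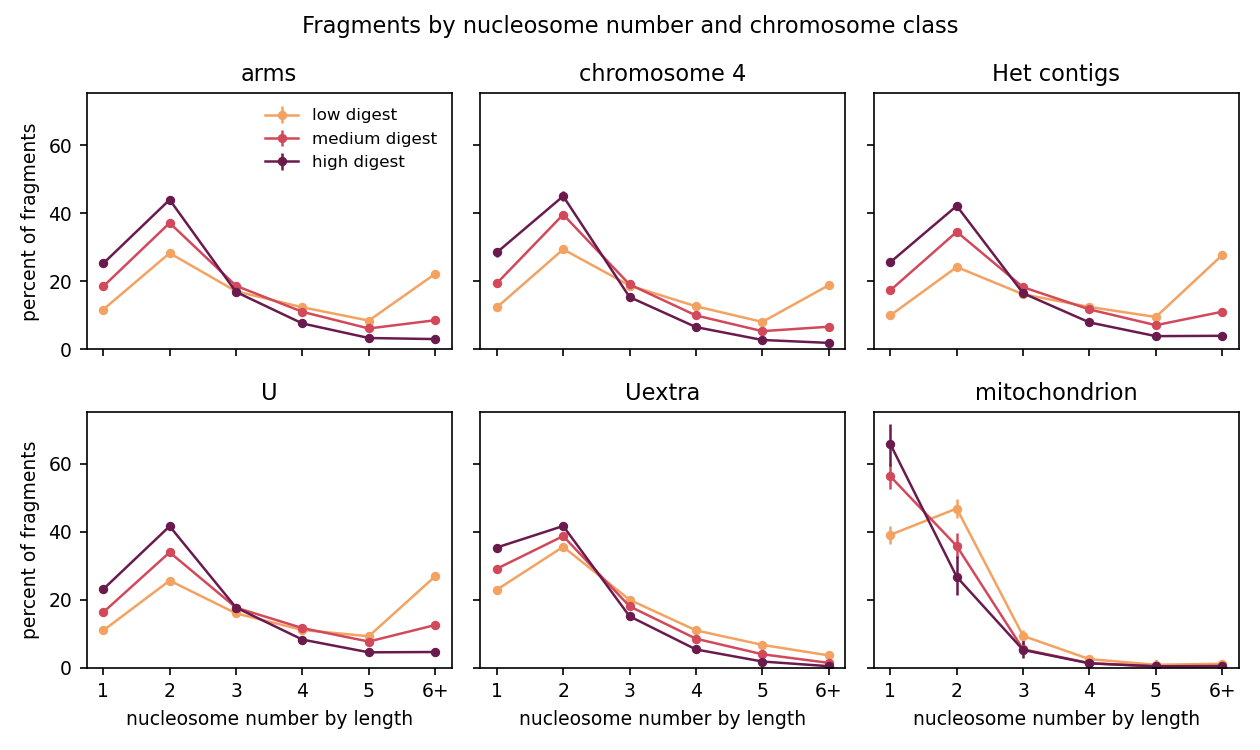
Percent of fragments (vertical axis) by nucleosome number, assigned from length (horizontal axis, 6+ for 6 or more), in each chromosome class and digest; bars are Wilson 95% intervals. The dinucleosomal class is highest in every digest on the arms, chromosome 4 and Uextra, with 44.0% on the arms of the high digest. On the Het contigs and U the 6+ class is highest in the low digest, at 27.7% and 26.9%, against 24.2% and 25.7% dinucleosomal. In the medium and high digest the dinucleosomal class is highest there too. The mitochondrial mononucleosomal class reaches 65.8%.

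Fragments over 1000 bp made up 24.0% (23.8% to 24.1%) of all fragments in the low, 9.96% (9.88% to 10.1%) in the medium and 3.70% (3.64% to 3.77%) in the high digest. The difference between high and low was -20.3 percentage points (-20.4 to -20.1), and the untreated libraries, at 17.9% and 21.7%, differed by 3.81 points. On the Het contigs the share was 30.8%, 13.1% and 4.89% in the low, medium and high digest. It was 24.8%, 10.2% and 3.85% on the arms, and 21.4%, 8.15% and 2.45% on chromosome 4. The fall from low to high was 6.29-fold on the Het contigs, 6.43-fold on the arms and 8.77-fold on chromosome 4. On Uextra the share was 4.47%, 1.89% and 0.680%, a 6.58-fold fall from a much lower start. Naked DNA also had a low share on Uextra, 0.812% against 7.55% on the arms. In the low digest the share on Uextra dropped from 8.87% over 900 bp to 4.47% over 1000 bp, and then only to 3.35% over 1100 bp. In naked DNA these shares were 1.51%, 0.812% and 0.481%. Whether the sequences collected in Uextra were long enough to hold longer fragments was not tested.

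The Het contigs exceeded the arms by 5.98 percentage points in the low digest (5.33 to 6.64), by 2.83 in the medium (2.40 to 3.27) and by 1.04 in the high digest (0.718 to 1.38). The excess was also present in untreated replicate 1, at 3.03 points, and in replicate 2, at 2.66 points. In naked DNA the Het contigs lay below the arms by 0.462 points (95% interval of the difference -0.594 to -0.328). The excess of the Het contigs did not rest on a single contig in the low and medium digest, where all 6 lay above all 5 arms. The intervals of 2LHet (654 and 850 fragments) and YHet (310 and 388) still reached into the range of the arms in both. In the high digest 5 of 6 lay above, and 2LHet lay within the range of the arms at 3.83%. There the intervals of 2RHet, 3LHet and YHet reached into that range too. In untreated replicate 1 all 6 exceeded the arms, in untreated replicate 2 only 3 did and the other 3 lay below all arms, and in naked DNA 1 of 6, XHet, lay above and 5 lay below. The interval of 2LHet in replicate 1 reached into the range of the arms, as did those of 2LHet, 2RHet, 3LHet and YHet in replicate 2. Without XHet the excess in the digests was 4.77, 2.17 and 0.722 points. With scores of at least 20 only, it was 7.11, 2.96 and 0.817 points.

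Chromosome 4 fell short of the arms by 3.33 percentage points in the low digest (95% interval of the difference -4.38 to -2.25), by 2.10 in the medium (-2.74 to -1.42) and by 1.41 in the high digest (-1.81 to -0.923). Naked DNA showed the same order without histones, with chromosome 4 at 4.15% and the arms at 7.55%. Unplaced contig U, at 30.0%, 15.1% and 5.60%, exceeded the arms in all 3 digests, and in naked DNA by 0.206 points only.

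**Figure D4:**
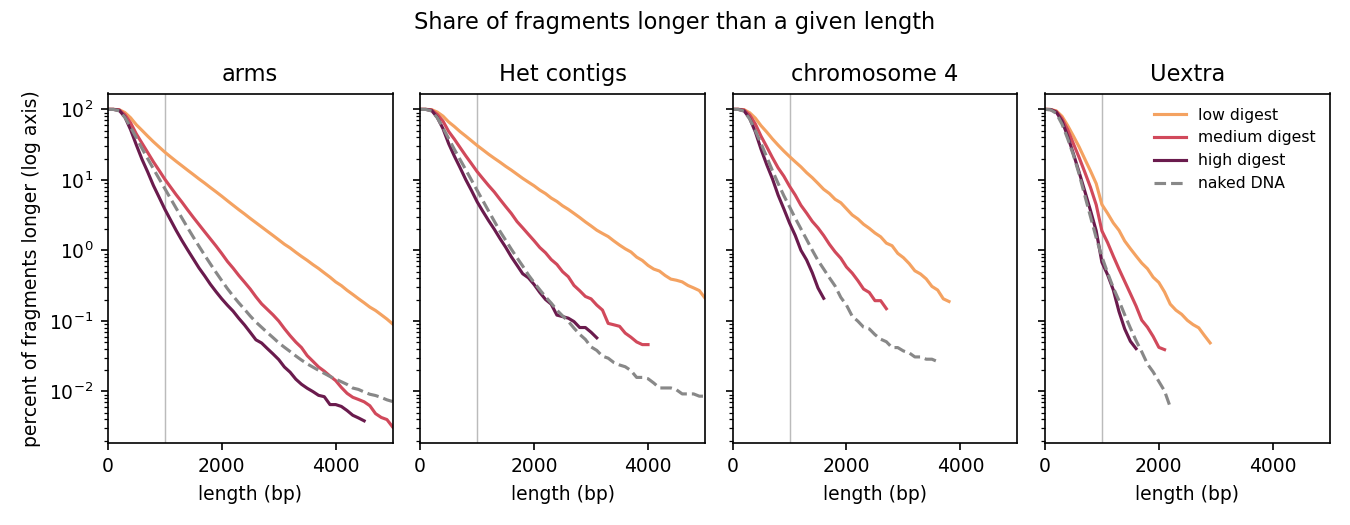
Percent of fragments longer than a given length (vertical log axis) against that length in bp (horizontal axis) for the arms, the Het contigs, chromosome 4 and Uextra; solid lines are the 3 digests, the dashed line is naked DNA, the grey line marks 1000 bp, and lines end where fewer than 10 fragments remain. At 1000 bp the low digest reads 24.8% on the arms and 30.8% on the Het contigs, and the high digest 3.85% and 4.89%.

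The decay of the long end differed between the digests in shape as well as in rate. Fragments of the arms over 1000 bp exceeded that limit by 693 bp on average in the low digest (687 to 698). The excess was 408 bp (404 to 413) after medium and 321 bp (313 to 328) after high digestion. Beyond 2000 bp the mean excess was 706, 447 and 506 bp, and beyond 3000 bp 736, 549 and 640 bp. The low digest thus kept nearly the same decay length throughout, whereas in the high digest the few longest fragments (538 over 2000 bp and 74 over 3000 bp) decayed more slowly than the rest. A slower far end was not particular to the high digest. Beyond 2000 and 3000 bp the mean excess on the arms was 536 and 1093 bp in naked DNA. It was 810 and 1065 bp in untreated replicate 1, and 440 and 511 bp in replicate 2. Each of these also exceeded the library's value beyond 1000 bp. The mean excess over 1000 bp was larger on the Het contigs than on the arms in all 3 digests, at 756, 449 and 359 bp, and smaller on chromosome 4, at 586, 371 and 257 bp. Naked DNA had 330 bp on the arms, 324 bp on the Het contigs and 304 bp on chromosome 4. Untreated replicates 1 and 2 differed widely, at 542 and 289 bp on the arms, so differences in decay of that size occurred between libraries of the same kind.

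At maxima 2 and 3 the rungs of the ladder were also sharper on the Het contigs than on the arms. The peak-to-trough ratio of the second maximum was 2.02 on the Het contigs against 1.79 on the arms in the low, 2.53 against 2.03 in the medium and 2.55 against 2.24 in the high digest. The quotient of the ratios was 1.13 (1.04 to 1.23), 1.24 (1.16 to 1.33) and 1.13 (1.06 to 1.22). At the third maximum it was 1.13 (1.02 to 1.25), 1.21 (1.11 to 1.32) and 1.06 (0.950 to 1.18), so that the interval of the high digest included 1. The Het contigs had the higher ratio in 5 of 5 chromatin libraries at both maxima, with 1.43 and 1.38 in untreated replicate 1. In naked DNA the quotient was 1.02 and 0.994. On the X, the arm that dosage compensation acts on in males, the ratio was lower than on the autosomal arms in 5 of 5 chromatin libraries at maxima 2, 3 and 4. Its quotient at the second maximum was 0.878 (0.822 to 0.938) in the low, 0.930 (0.883 to 0.980) in the medium and 0.919 (0.869 to 0.971) in the high digest, and 0.993 (0.973 to 1.01) in naked DNA. At the third maximum it was 0.907 (0.836 to 0.983), 0.968 (0.900 to 1.04) and 0.908 (0.835 to 0.988) in the same order of digests, and naked DNA was also below 1 there, at 0.961 (0.935 to 0.988). At the fourth it was 0.894 (0.808 to 0.988), 0.975 (0.886 to 1.07) and 0.936 (0.825 to 1.06). The positions were those of the arms together, 410 and 793 bp for maxima 2 and 4 of the low digest. The X alone had 397 and 821 bp, so the quotient cannot tell a weaker rung from a shifted one. Chromosome 4 did not differ from the arms beyond counting error in any digest at maxima 2, 3 and 4. Its ratio was the lower one in 5 of 5 chromatin libraries at the third maximum, but it was the higher one in 2 of 5 at the second and in 1 of 5 at the fourth. At the third maximum the intervals of the quotient ran from 0.767 to 1.09 in the low digest, from 0.736 to 1.02 in the medium and from 0.730 to 1.11 in the high digest. On Uextra the second maximum was weaker in all 3 digests, with quotients of 0.758, 0.809 and 0.777.

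The maxima of the Het contigs moved in the same direction as those of the arms. The second maximum lay at 415 bp in the low, 410 bp in the medium and 399 bp in the high digest, the third at 623, 599 and 596 bp, and the fourth at 820, 769 and 762 bp. All of these but the fourth of the medium digest lay above the corresponding maximum of the arms, by 5 to 27 bp. Chromosome 4, with 4784 to 6715 fragments per digest, placed its second maximum at 401, 387 and 396 bp, with no order by digest.

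A stretch of the XHet contig stood out for long fragments. Among 1005 bins of 10 kb with at least 30 fragments in each digest, XHet 190001 to 200000 had the highest share over 1000 bp in the low digest; the bins named here were chosen on the low digest after values had been seen, and all coordinates are of release 5 of the genome. In that bin 87.9% of 398 fragments exceeded 1000 bp in the low digest (84.4% to 90.8%), 73.8% of 237 in the medium (67.9% to 79.0%) and 57.6% of 85 in the high digest (47.0% to 67.6%). Their median length was 1590.5, 1270 and 1059 bp, while in the rest of XHet it was 731, 530 and 434 bp. The order of the bins used the low digest alone, while the minimum of 30 fragments applied to all 3 digests. In naked DNA 48.6% of 1106 fragments there exceeded 1000 bp, with a median of 987.5 bp, against 7.55% on the arms. Untreated replicates 1 and 2 had 72.3% of 480 and 86.6% of 82 fragments over 1000 bp there. Alignment was less certain in that bin, where 31.2%, 41.8% and 55.3% of fragments scored under 20 in the low, medium and high digest. In the rest of XHet 23.7%, 26.7% and 26.5% did. Whether this changed the lengths found in the bin was not tested. The next bins by the same order were 3LHet 610001 to 620000 (80.0%, 54.3% and 38.9% in the low, medium and high digest), U 7240001 to 7250000 (79.2%, 41.8% and 32.4%), U 6600001 to 6610000 (78.1%, 48.6% and 36.2%) and U 6160001 to 6170000 (69.4%, 31.6% and 12.9%). Naked DNA had 38.4%, 34.0%, 34.7% and 20.5% in these 4 bins, so long fragments were frequent there without histones too. No gene annotation of that release was used, so what these bins hold is not given.

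Along the arms themselves, the share of fragments over 1000 bp was taken in 239 windows of 500000 bp. Its median was 24.6% in the low digest, with 22.6% and 27.0% at the 10th and 90th percentile. In the medium digest the median was 10.2%, with 8.89% and 11.9%, and in the high digest 3.83%, with 2.91% and 5.04%. Relative to the median the windows thus spread most in the high digest, where fragments over 1000 bp were fewest. The window X 21500001 to 22000000, near the proximal end of the X, was highest in the low digest with 30.3% and also in the medium with 14.9%. It had 4.45% in the high digest, 25.4% and 24.7% in the untreated libraries and 7.80% in naked DNA. The X as a whole, at 24.9%, 10.6% and 4.01%, lay within 0.4 percentage points of the autosomal arms, at 24.8%, 10.2% and 3.83%.

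The share of fragments from each class changed little with digestion, except for the mitochondrial genome, the XHet contig and Uextra. In order of digestion the arms held 80.6%, 80.3% and 80.0% of fragments. Chromosome 4 held 1.64%, 1.53% and 1.46%, the Het contigs 5.75%, 5.45% and 5.32%, and U 5.30%, 5.00% and 4.84%. Uextra rose from 6.35% through 7.59% to 8.32%, by a factor of 1.31 from low to high (1.29 to 1.33). Its share in naked DNA was 7.26% and in the untreated libraries 6.28% and 6.20%. The XHet contig fell from 0.188% through 0.117% to 0.0813%, which was 2.31-fold (2.00 to 2.66). Most of that fall lay in the bin with long fragments, which held 0.112% of the low, 0.0541% of the medium and 0.0260% of the high digest, while the rest of XHet held 0.0760%, 0.0633% and 0.0553%. Scores under 20 rose in the bin from 31.2% of its fragments in the low to 55.3% in the high digest. Whether less certain alignment took part in the fall was not tested.

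**Figure D5:**
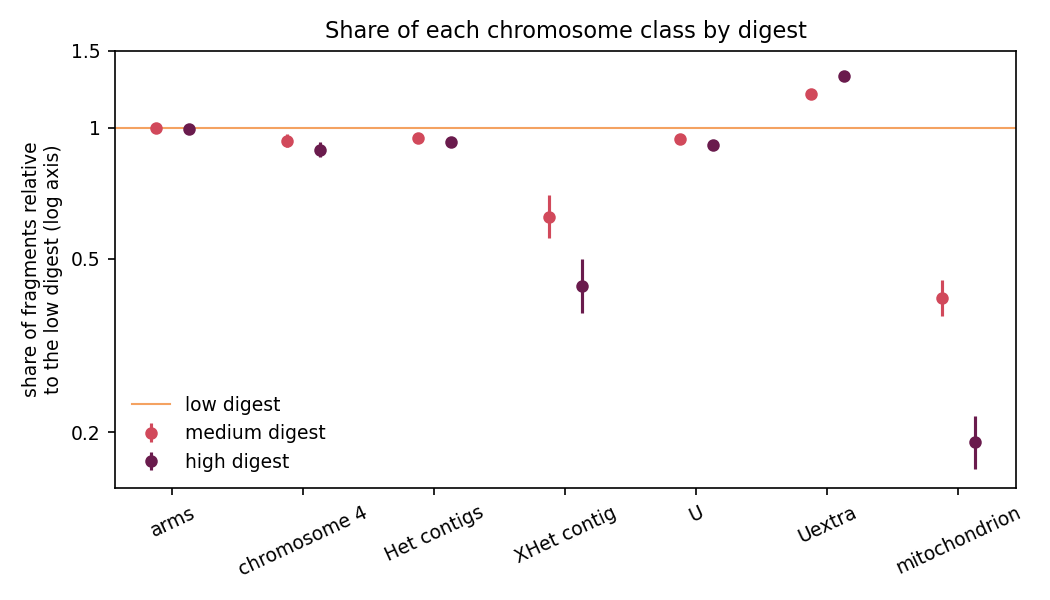
Share of fragments of each chromosome class in the medium and high digest divided by its share in the low digest (vertical log axis; the line at 1 is the low digest), with the XHet contig also shown alone; bars are 95% intervals from counting. The mitochondrial share falls to 0.190 of its low-digest value in the high digest and that of XHet to 0.433, while Uextra rises to 1.31.

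Mitochondrial DNA, which has no nucleosomes, was the class whose share fell most. It made up 0.375% of fragments in the low digest (0.356% to 0.396%; 1334 fragments), 0.153% in the medium (0.141% to 0.165%; 668 fragments) and 0.0712% in the high digest (0.0627% to 0.0810%; 233 fragments). The high digest thus had 5.27-fold less than the low digest (4.58 to 6.05), a difference of -0.304 percentage points. The untreated libraries held 0.143% and 0.136%, a difference between them of 0.0076 points, and naked DNA held 0.117%. Mitochondrial fragments were short already in the low digest, with a median of 346.5 bp, and shortened to 298 bp in the medium and 282 bp in the high digest. Fragments up to 250 bp grew from 13.6% of them through 28.0% to 35.6% with stronger digestion. In untreated replicates 1 and 2 they made up 11.1% and 38.4%, with median lengths of 409 and 274.5 bp. By both measures the untreated libraries thus differed from each other by more than the low and high digests did. In the 3 digests only 1.35%, 0.749% and 0.429% of mitochondrial fragments exceeded 1000 bp, the last being 1 of 233 fragments. Most mitochondrial fragments had scores under 20, and with scores of at least 20 only the share was 0.0583% in the low and 0.0100% in the high digest, 5.80-fold less.

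On Uextra, a single 1 kb bin, 3081001 to 3082000, held 15.5%, 13.6% and 10.4% of the fragments of Uextra in the low, medium and high digest. It held 19.0% and 30.1% in the untreated libraries, and 2.89% in naked DNA. Its fragments had a median of 619, 519 and 454 bp in the 3 digests, longer than the 422, 389 and 359 bp of the rest of Uextra. Without the bin, Uextra held 5.42%, 6.63% and 7.52% of fragments, so its rise with digestion did not depend on that bin. Intervals that occurred more than once made up 2.15% to 3.40% of Uextra fragments in the digests and at most 0.00349% of those on the arms.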

How the data were processed

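The authors deposited 1 table per nanopore library, with chromosome, start, end and a score for each aligned fragment (no score in untreated replicate 2); the score looks like an aligner's mapping quality. Bowtie 1.1.1, bedtools and genome build dm3 are named in the submitters' processing notes without a role for each; filters are not given in the sources used here. The 3 digests' tables were matched to libraries through the table names. Fragment length was end minus start, which is the aligned span. Histograms were smoothed with a Gaussian (SD 10 bp) and divided by a wide smooth (SD 100 bp). The dinucleosomal maximum was sought from 310 to 440 bp and each next one 130 to 230 bp above; the first was sought 90 to 230 bp below, a wider range set after the data were seen. Shares have Wilson, differences of shares Newcombe 95% intervals; the search for maxima was tested on simulated ladders. With 1 library per digest, no statistical test between digests was made. The bins and contigs named were chosen, and the items and measures set, with earlier results of these data known. Alternatives covered repeated intervals, scores of at least 20, regions, boundaries, thresholds and smoothing. Kc and Illumina libraries were not used here. Python 3.11.15, numpy 2.4.6, scipy 1.17.1 and pandas 2.3.3 were used.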

Additional observations from a re-analysis of the deposited data

How the results depend on the processing

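All 5 differences between the high and low digest were recomputed under 49 alternatives in all. The dinucleosomal maximum moved between -24.0 and -16.5 bp in all 11 of its alternatives. The loss of nucleosomes per fragment kept its direction in all 10. It was -1.81 with boundaries 20 bp lower, -1.70 with boundaries from each library alone, -3.74 with fragments weighted by length, -1.77 without fragments over 5000 bp, and -1.83 both on the arms alone and with scores of at least 20. The loss of fragments over 1000 bp kept its direction in all 9 alternatives. It was -20.9 percentage points among fragments over 250 bp and also on the arms, -20.8 with scores of at least 20, -20.4 without the densest Uextra bin, and -21.4 without Uextra and the mitochondrion, an alternative chosen after the data were seen. It was -10.8 points for fragments over 1500 bp, -5.50 for those over 2000 bp and -39.9 as percent of bases. The mitochondrial difference was -0.375 points with arms and mitochondrion alone as the denominator, -0.0482 with scores of at least 20, and -0.135 as percent of bases (chosen after the data were seen). The repeat length difference, 1.20 bp, turned negative in 8 of 14 alternatives: -5.60 bp with smoothing of SD 20 bp, -8.00 with maxima 2 to 4, -13.0 with maxima 2 to 6, -41.7 without division by the wide smooth (a maximum then lay on its search limit), -2.45 from local quadratic fits, -4.60 with scores of at least 20, -4.70 without the densest Uextra bin and -9.30 from the cosine (chosen after the data were seen). The cause was not tested. No paired analysis was possible because each digest has 1 library. Depth limits chromosome 4, the mitochondrion and maxima above the fourth.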

Other observations

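In the proximal 1000000 bp of the arms, next to the pericentric heterochromatin, 26.1% of fragments exceeded 1000 bp in the low digest (25.3% to 26.9%), against 24.7% in the rest of the arms. In the medium digest the values were 10.8% and 10.2%, and in the high digest 3.52% (3.19% to 3.89%) and 3.87%, within counting error. The untreated libraries had 18.4% in both stretches (replicate 1) and 21.6% against 22.8% (replicate 2), and naked DNA had 6.39% against 7.60%. By nucleosomes per fragment the proximal stretch lay above the rest in the low digest, at 4.29 (standard error 0.0329) against 4.15 (0.00651). It lay below the rest in the high digest, at 2.26 (0.0133) against 2.33 (0.00275). The medium digest had 2.91 and 2.90, and naked DNA 2.46 and 2.60. An excess in the proximal stretch was thus not a feature of all chromatin libraries. Across 223 windows of 500000 bp on the arms, the share over 1000 bp had a Pearson correlation of 0.439 between the low and medium, 0.274 between the low and high, and 0.337 between the medium and high digest. With naked DNA it was 0.268 for the low, 0.551 for the medium and 0.487 for the high digest; the windows share their base composition and the libraries their alignment, and these values are a description. Untreated replicate 1 held mitochondrial fragments up to 19517 bp long, the longest in untreated replicate 2 was 1053 bp, and the longest in the low, medium and high digest were 4336, 2442 and 1654 bp.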
